A study of Mus musculus with 12 samples.

Results

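Notch receptors and 7 of their direct target genes were followed in RNA from mouse thymus. The 10 members were Notch1, Notch2 and Notch3, the targets Hes1, Hey1, Heyl, Dtx1 and Nrarp, and Igf1r and Trib2, which have been described as direct targets of NOTCH1 in human T cell leukemia. They were taken by symbol from the 51734 gene symbols in the 12 deposited libraries, and all 10 passed the filter on low counts. Notch1 was also followed transcript by transcript.

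The 9 tumor libraries were labelled as doxycycline-induced Il7r tumors from thymus, with a genotype of tetracycline-inducible expression of the interleukin-7 receptor alpha chain. The 3 control libraries were labelled as healthy thymus with the genotype "control". All 12 shared the strain label F5, Trizol extraction, polyadenylated RNA and paired reads of 75 bases. The labels did not give the promoter or driver of the inducible construct, the doxycycline dose, the ages, or whether each library came from a separate animal, so p-values measure the spread among libraries, part of which may be technical.

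Notch proteins are cell surface receptors. When a Delta or Jagged ligand on a neighbouring cell binds, metalloproteases and then gamma-secretase cut the receptor, and the freed intracellular part enters the nucleus, where it joins RBPJ and Mastermind-like proteins to switch on target genes. Notch1 directs early thymus cells to the T lineage, and mutations or truncated transcripts that free its intracellular part from ligand control are common in mouse and human T cell acute lymphoblastic leukemia.

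Tumors 7 to 9 stood apart from tumors 1 to 6 and lay with the controls in the make-up of their RNA. Mitochondrial genes held between 31.6% and 69.3% of all counts in tumors 1 to 6 and between 2.54% and 11.1% in tumors 7 to 9, against 0.0948% to 6.73% in the controls. Of 1449 olfactory and vomeronasal receptor genes, which thymus cells are not known to use, 7.11% to 54.2% had no count at all in tumors 1 to 6 and between 0.759% and 1.31% in tumors 7 to 9, against 0.621% to 0.897% in the controls. A summed list of 10 T cell markers stood at 1045 to 1369 CPM (counts scaled by library size and TMM factor) in tumors 1 to 6 and at between 42.7 and 98.9 CPM in tumors 7 to 9, against 29.4 to 66.2 CPM in the controls. Of the 10 T cell markers, at least 8 lay above the 95th percentile of the receptor genes in each of tumors 1 to 6 and at most 2 in each of tumors 7 to 9, against at most 2 in each control, so the labelled thymus tissue was weakly marked in tumors 7 to 9 and the controls. Library totals were 11617724 to 34769946 estimated counts in the tumors and 8133152 to 12019924 in the controls. The trimmed-mean (TMM) factors that scale the CPM values were 0.282 to 0.852 in tumors 1 to 6, between 1.01 and 2.58 in tumors 7 to 9 and 2.52 to 3.16 in the controls. Any CPM difference between these libraries therefore rested on a large scaling step, and each member was also ranked by counts per kilobase among the receptor genes of its own library, which needs no scaling. In bulk RNA, fewer cells of a type and less RNA per cell cannot be told apart.

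Stretches of Notch1 RNA show which transcript forms the counts could separate, each with 30 bases on either side of a splice junction or intron edge and with the bases after it in capitals. They are from the GENCODE M21 transcripts of the GRCm38 assembly, minus strand of chromosome 2, written 5′ to 3′. The full-length transcript (ENSMUST00000028288.4) has 34 exons. An upstream-start form (ENSMUST00000132820.1) begins before it and joins its own exon 2 to exon 19 of the full-length transcript, so it lacks the 3233 bases that precede this exon. An intron-retaining form (ENSMUST00000131393.1) reads from exon 2 into the next intron.
Full-length form, exon 18 to exon 19 (chr2:26472243-26472813): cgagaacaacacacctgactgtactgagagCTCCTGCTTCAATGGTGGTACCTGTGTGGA
Upstream-start form, own exon 2 to the same exon (chr2:26472243-26509641): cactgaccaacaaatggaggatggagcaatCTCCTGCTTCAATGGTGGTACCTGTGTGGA
Full-length form, exon 2 to exon 3 (chr2:26485420-26501910): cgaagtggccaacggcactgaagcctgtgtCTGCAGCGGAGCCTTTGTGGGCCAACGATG
Intron-retaining form, exon 2 into the intron (chr2:26501851-26501910): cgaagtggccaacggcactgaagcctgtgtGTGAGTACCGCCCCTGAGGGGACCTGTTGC
The first pair shares its capitals and the second pair its lower-case letters. The joins of the upstream-start and intron-retaining forms are absent from the full-length form, so reads across them can be assigned to those forms. A truncated transcript that is not in the index would be counted mostly as the full-length form, because its sequence is shared.

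Notch1 (ENSMUSG00000026923.15, chr2:26457903-26516663, minus strand) was the most abundant of the 3 receptors per kilobase in each of tumors 1 to 6. Its level was 287, 393, 46.8, 71.2, 34.0 and 809 CPM in tumors 1 to 6 and 7.56, 12.9 and 15.8 CPM in tumors 7 to 9, against 17.7, 9.06 and 9.35 CPM in controls 1 to 3. In CPM all of tumors 1 to 6 lay above the highest control and none of tumors 7 to 9 did, so the tumors and the controls overlapped. In TPM Notch1 was at 21.4, 23.0, 3.53, 1.62, 9.94 and 114 in tumors 1 to 6. It was at 4.22, 9.47 and 21.2 TPM in tumors 7 to 9, against 19.1, 18.7 and 12.2 TPM in the controls. Tumors 3, 4 and 5 were thus below every control in TPM, and their place against the controls depended on the unit. The estimated counts behind these values were 2690, 3017, 379, 522, 853 and 12693 in tumors 1 to 6 and 131, 305 and 474 in tumors 7 to 9, against 535, 250 and 232 in the controls. Tumors 6, 2 and 1 were high and tumors 3, 4 and 5 were low, with 23.8 times between tumor 6 and tumor 5 in CPM. Each tumor is 1 library, so neighbours in this order have no spread of their own.

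**Figure D1:**
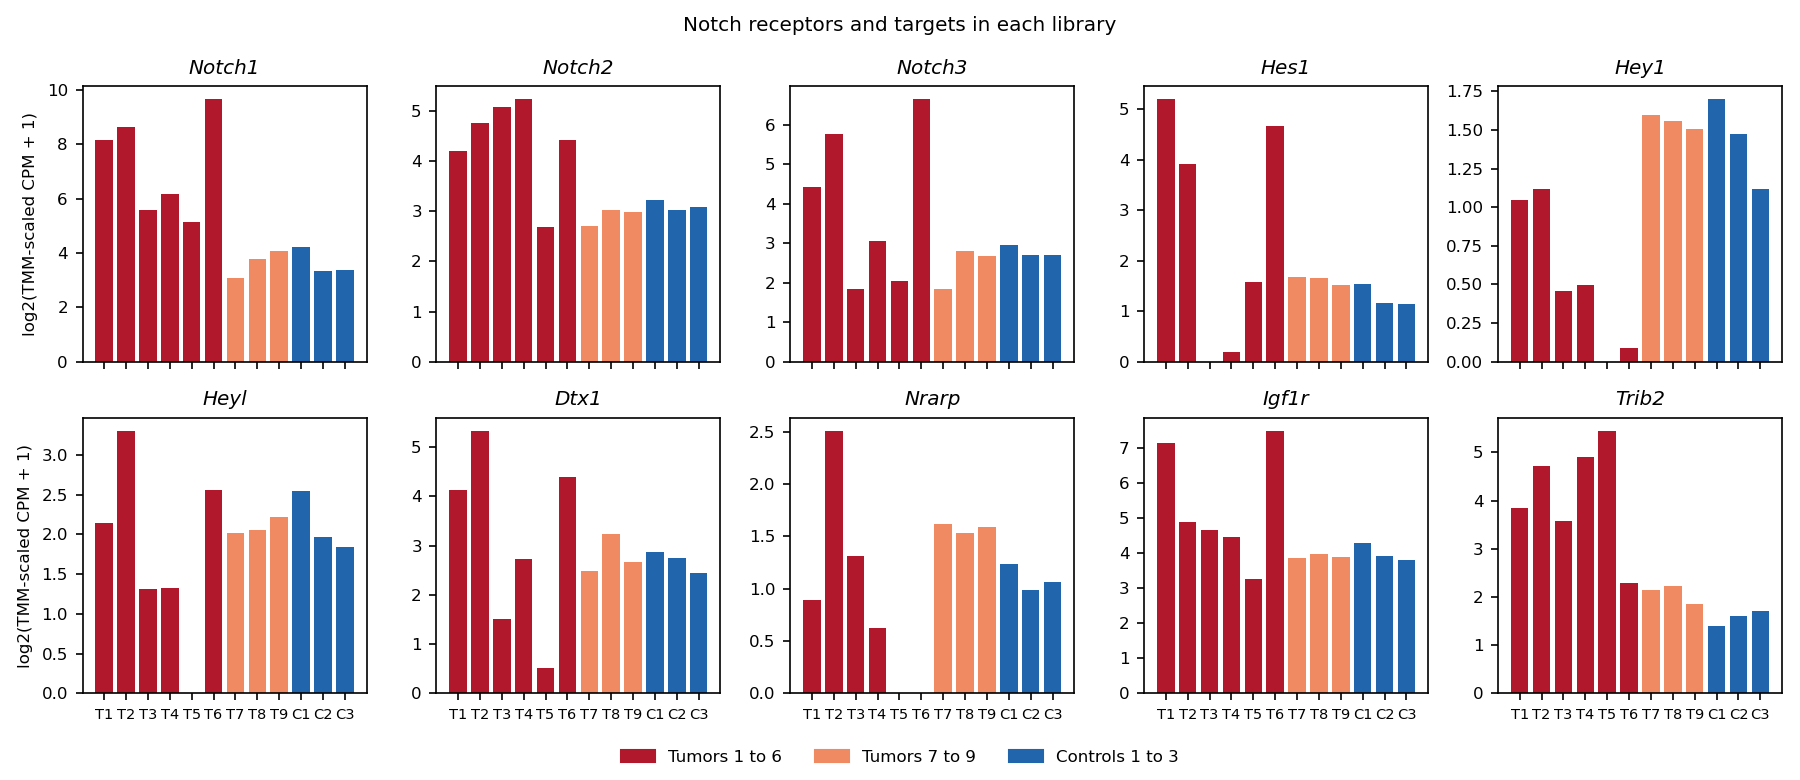
Level of each member as log2 of TMM-scaled CPM plus 1 (vertical axes differ between panels) in tumors 1 to 6 (dark red), tumors 7 to 9 (orange) and controls 1 to 3 (blue), with 1 bar for each library. Notch1 reaches 809 CPM in tumor 6 and is above the highest control in tumors 1 to 6, while tumors 7 to 9 lie near the controls in most panels.

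Set against the receptor genes of its own library, Notch1 counts per kilobase were 72.6, 104, 32.5, 32.8 and 4196 times the receptor median in tumors 1, 2, 3, 4 and 6. They were 1.07, 2.23 and 2.20 times the median in tumors 7 to 9, against 2.65, 1.29 and 1.31 times in the controls. Tumor 5 has no such ratio because its receptor median was 0, and there Notch1 lay at percentile 98.1 of the receptor genes. Notch1 was thus far above the silent genes in 6 tumors and within their range elsewhere, and the control values do not give a level of Notch1 in healthy thymus. The mean log2 ratio was 4.67 in 8 tumors and 0.72 in 3 controls, a difference of 3.95 (two-sided exact permutation test over 165 splits, p = 0.121, where the smallest possible p is 0.00606). Without tumors 7 to 9 the difference was 6.28 (exact permutation test over 56 splits, p = 0.0357, smallest possible p 0.0179). Tumors 7 to 9 were set apart partly by their receptor-gene background, which is the divisor of this ratio. Leaving them out thus selects on the tested value, and this p gives no test of tumor against control. A background of 40 genes of other tissues gave a value in every library and a difference of 4.01 (exact permutation test over 220 splits, p = 0.0909).

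The full-length form (9488 bases) held most Notch1 counts in tumors 1 to 6. Its share was 91.6%, 91.7%, 84.0%, 89.1%, 86.2% and 91.8% in tumors 1 to 6 and 38.5%, 63.2% and 63.2% in tumors 7 to 9, against 60.1%, 63.0% and 60.3% in the controls. Every share in tumors 1 to 6 was above every other, and the 95% Wilson intervals did not meet (lowest bound 80.2% in tumor 3, highest bound 68.9% in control 2). The intervals hold counting error alone, because reads without molecular identifiers are not independent. How many other genes had transcript shares that set these libraries apart was not counted.

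The intron-retaining form ran the other way. It held 4.03%, 5.19%, 10.2%, 9.93%, 7.50% and 5.15% of Notch1 counts in tumors 1 to 6 and 44.2%, 25.2% and 25.4% in tumors 7 to 9, against 29.6%, 25.5% and 28.2% in the controls. Per kilobase it had 0.104 to 0.286 times the counts of the full-length form in tumors 1 to 6 and between 0.935 and 2.70 times in tumors 7 to 9, against 0.954 to 1.16 times in the controls. In tumors 7 to 9 and the controls, intron and exon sequence were thus about equally dense in all libraries but tumor 7, where the intron-retaining form was denser. The receptor-gene background, higher in the same libraries, moved with this, and its part in the result was not tested. Whether genomic DNA was counted in these libraries, or whether their labels are correct, was not tested either, and the levels given for tumors 7 to 9 and the controls carry that limit.

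The form with the upstream start, annotated at 512 bases, held few of the counts. It held 4.18, 17.4, 1.08, 3.97, 0 and 71.4 estimated counts in tumors 1 to 6 and 11, 9 and 12.6 in tumors 7 to 9, against 21.1, 6.69 and 10.3 in the controls. As a share of Notch1 this was 0% to 0.760% in tumors 1 to 6 and between 2.67% and 8.38% in tumors 7 to 9, against 2.67% to 4.46% in the controls. The 0 counts in tumor 5 allowed a share of up to 0.448% by the Wilson interval. Tumor 6 had the largest number of such counts, and its share of 0.563% was still below that of every control. In TPM, which divides counts by effective length, the form took 0% to 12.8% of Notch1 in tumors 1 to 6. It took between 9.65% and 23.4% in tumors 7 to 9, against 8.92% to 22.2% in the controls. The low share thus holds by counts and not by TPM.

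Notch1 has 8 annotated short transcripts that start downstream of the exon with the start codon of the full-length form and so lack its 5′ end. Together they held 4.17%, 2.56%, 5.47%, 0.192%, 6.34% and 2.44% of Notch1 counts in tumors 1 to 6 and 8.91%, 8.69% and 8.71% in tumors 7 to 9, against 6.27%, 8.81% and 6.95% in the controls. No tumor held more than 8.91% in these forms by counts. In TPM the same forms took 68.5%, 65.9%, 78.7%, 20.0%, 87.4% and 64.7% of Notch1 in tumors 1 to 6 and between 61.8% and 75.0% in tumors 7 to 9, against 54.8% to 76.1% in the controls. The forms are 157 to 459 bases long with effective lengths down to 37.0 bases, and TPM divides counts by that length, so in tumor 5 a sum of 54.1 counts became 87.4% of the gene's TPM. All of them are annotated as processed transcripts without a coding sequence.

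**Figure D2:**
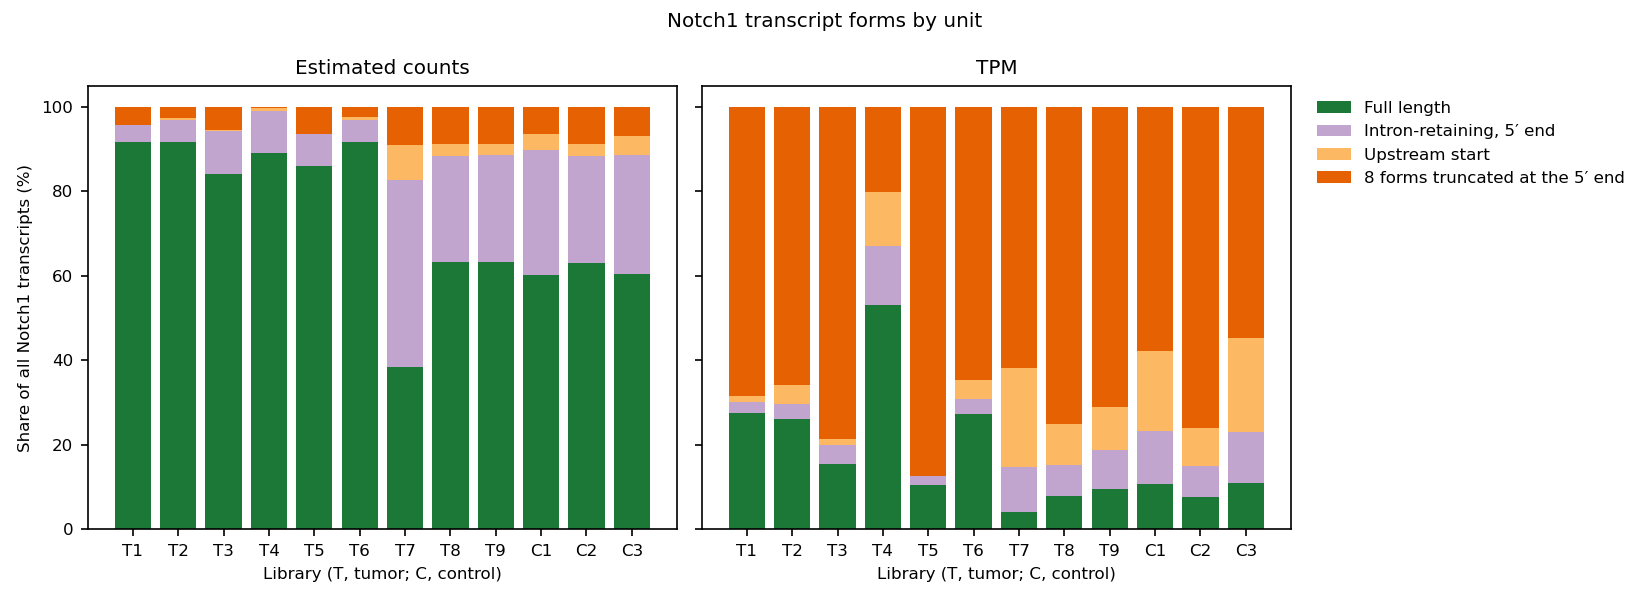
Share of Notch1 (vertical axis, percent) held by the full-length form, the intron-retaining form, the upstream-start form and 8 forms truncated at the 5′ end, by estimated counts (left) and by TPM (right), in tumors 1 to 9 and controls 1 to 3. By counts the full-length form holds 84.0% to 91.8% in tumors 1 to 6, and by TPM the truncated forms hold 20.0% to 87.4% of the same tumors.

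Notch2 (ENSMUSG00000027878.11, chr3:98013527-98150361, plus strand) and Notch3 (ENSMUSG00000038146.7, chr17:32120820-32166852, minus strand) encode receptors that are cut and signal in the same way. Notch2 was at 17.4, 26.2, 32.6, 36.6, 5.46 and 20.3 CPM in tumors 1 to 6 and at 5.48, 7.18 and 6.95 CPM in tumors 7 to 9, against 8.30, 7.14 and 7.42 CPM in the controls. It was above the highest control in 5 of 9 tumors, and in CPM its order across tumors was led by tumors 4 and 3. By estimated counts, CPM of library totals and rank among the receptor genes tumor 6 was the highest, as for Notch1. It lay above the 95th percentile of the receptor genes in tumors 3, 4 and 6, at percentiles 95.3, 95.1 and 96.2. Tumors 3 and 4 passed that line narrowly, and tumor 2 stood below it at percentile 90.4.

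Notch3 was at 20.5, 53.7, 2.59, 7.37, 3.15 and 99.0 CPM in tumors 1 to 6 and at 2.60, 6.00 and 5.41 CPM in tumors 7 to 9, against 6.75, 5.51 and 5.48 CPM in the controls. Tumors 6, 2 and 1 were high, the same 3 tumors that were high for Notch1, and 4 of 9 tumors lay above the highest control. It passed the 95th percentile of the receptor genes in tumors 2 and 6, at percentiles 96.9 and 99.9, and stood at 89.6 in tumor 1. Per kilobase, tumor 6 held 85.2 CPM of Notch1, 12.3 of Notch3 and 1.94 of Notch2.

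Pdgfrb, a growth factor receptor used here as a marker of mural cells, moved with Notch3 and Notch1. It was at 152, 64.5, 6.67, 6.41, 0.916 and 154 CPM in tumors 1 to 6 and at between 2.66 and 4.58 CPM in tumors 7 to 9, against 3.41 to 6.91 CPM in the controls. The other 7 mural markers reached at most 6.91 CPM in tumors 1 to 6 and 9.59 CPM in tumors 7 to 9, against 10.1 CPM in the controls. At most 1 of the 8 mural markers lay above the 95th percentile of the receptor genes in any library. The whole mural list summed to 6.85 to 178 CPM in tumors 1 to 6 and to between 28.3 and 32.8 CPM in tumors 7 to 9, against 32.5 to 33.7 CPM in the controls. Whether cells other than leukemia cells contributed the Notch3 RNA was not tested.

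Hes1, Hey1 and Heyl encode basic helix-loop-helix repressors that bind DNA downstream of Notch. Hes1 (ENSMUSG00000022528.7, chr16:30064384-30067796, plus strand) was at 35.7, 14.1, 0, 0.136, 1.99 and 24.3 CPM in tumors 1 to 6 and at 2.19, 2.15 and 1.87 CPM in tumors 7 to 9, against 1.92, 1.23 and 1.21 CPM in the controls. Tumors 1, 2 and 6 were high and tumors 3 and 4 had 0 and 1 estimated counts, fewer than any control. Hes1 lay at percentiles 99.7, 98.2 and 99.9 of the receptor genes in tumors 1, 2 and 6 and at 94.6 in tumor 5, where 50 counts were seen. In tumor 3 the 0 counts allow up to 0.370 CPM (3 counts).

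Hey1 (ENSMUSG00000040289.8, chr3:8663359-8667256, minus strand) and Heyl (ENSMUSG00000032744.4, chr4:123233556-123249875, plus strand) never lay above the 95th percentile. Hey1 was at 1.07, 1.17, 0.370, 0.409, 0 and 0.0637 CPM in tumors 1 to 6 and at 2.02, 1.94 and 1.84 CPM in tumors 7 to 9, against 2.25, 1.78 and 1.17 CPM in the controls. No tumor was above the highest control, and Hey1 stood at percentile 59.8 or less of the receptor genes in every one of tumors 1 to 6. Heyl was at 3.42, 8.86, 1.48, 1.5, 0 and 4.91 CPM in tumors 1 to 6 and at 3.06, 3.17 and 3.64 CPM in tumors 7 to 9, against 4.83, 2.90 and 2.58 CPM in the controls. Its highest ranks were percentile 93.2 in tumor 6, from 77 counts, and 88.1 in tumor 2. In tumor 6 Heyl was at 54.3 times the receptor median, in a library where 47.2% of the receptor genes had no count.

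Dtx1 (ENSMUSG00000029603.15, chr5:120680202-120711927, minus strand) encodes deltex, a ubiquitin ligase of the Notch pathway that T cells induce on Notch signaling. It was at 16.5, 39.2, 1.85, 5.59, 0.438 and 20.1 CPM in tumors 1 to 6 and at 4.62, 8.36 and 5.31 CPM in tumors 7 to 9, against 6.35, 5.69 and 4.48 CPM in the controls. Tumors 2, 6 and 1 were high, and tumors 3 and 5 were below every control in CPM. By rank among the receptor genes tumor 3 (percentile 75.4) lay within the controls (72.7 to 78.8) and tumor 5 (67.3) below them. The percentiles of Dtx1 were 98.1 and 99.0 in tumors 2 and 6, and 94.2 in tumor 1. Transcripts annotated with a retained intron took 59.2%, 47.7%, 93.5%, 77.3%, 100% and 38.6% of Dtx1 counts in tumors 1 to 6 and between 62.6% and 79.2% in tumors 7 to 9, against 70.3% to 82.9% in the controls. Among tumors 1 to 6 the share was below every control in tumors 1, 2 and 6, and in tumors 3, 4 and 5 it rested on 15.4, 40.8 and 10.9 estimated counts of the gene.

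Nrarp (ENSMUSG00000078202.3, chr2:25180758-25183339, plus strand) encodes an ankyrin repeat protein that binds the Notch transcription complex and limits its signaling. It was at 0.855, 4.69, 1.48, 0.546, 0 and 0 CPM in tumors 1 to 6 and at 2.08, 1.90 and 2.01 CPM in tumors 7 to 9, against 1.36, 0.979 and 1.09 CPM in the controls. Tumor 2 was the highest library, with 36.4 estimated counts and percentile 87.6 of the receptor genes, and tumor 6, highest for Notch1 and Notch3, had none. The 0 counts in tumor 6 allow up to 0.191 CPM (3 counts).

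Igf1r (ENSMUSG00000005533.10, chr7:67952827-68233668, plus strand), the receptor tyrosine kinase for insulin-like growth factor, was at 140, 28.5, 24.2, 20.9, 8.60 and 178 CPM in tumors 1 to 6 and at 13.5, 14.7 and 13.8 CPM in tumors 7 to 9, against 18.5, 14.0 and 12.9 CPM in the controls. Tumors 6 and 1 were high, at percentiles 99.9 and 98.1 of the receptor genes, and the other 7 tumors were below the 95th percentile. Transcripts of Igf1r with a retained intron held 2.82% to 14.2% of its counts in tumors 1 to 6 and between 28.0% and 48.7% in tumors 7 to 9, against 48.6% to 52.0% in the controls. Tumors 1 to 6 lay below all other libraries, as for the intron-retaining form of Notch1, while tumors 7 to 9 and the controls overlapped for both genes. Other members did not share this order. Such shares were 0% to 13.4% for Notch2 in tumors 1 to 6, against 6.05% to 12.3% elsewhere. For Hes1 they were 0% to 8.40%, against 0% to 20.9%, and those of Hey1 and Dtx1 overlapped too. How many genes outside the list were set apart in this way was not counted, so the order is no result about Notch1 and Igf1r.

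Trib2 (ENSMUSG00000020601.8, chr12:15791727-15816922, minus strand), a tribbles pseudokinase that can transform blood cells in mice, had an order of its own. It was at 13.4, 25.5, 10.9, 29.1, 42.7 and 3.89 CPM in tumors 1 to 6 and at 3.41, 3.72 and 2.64 CPM in tumors 7 to 9, against 1.62, 2.07 and 2.26 CPM in the controls. All 9 tumors lay above the highest control in CPM, so this was the only one of the 10 members whose groups did not overlap, as was the case for 1.65% of all tested genes in this direction and 3.08% in the other. In TPM the groups of Trib2 overlapped, at 0.792 to 5.41 in the tumors and 0.753 to 1.58 in the controls. Tumors 5, 4 and 2 passed the 95th percentile of the receptor genes at 99.6, 97.9 and 96.3. Tumor 5 was highest for Trib2 with 1072 counts, and tumor 6, highest for Notch1, had 61 counts.

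Counted over all members, 21 of 60 values (10 genes in 6 libraries) lay above the 95th percentile of the receptor genes in tumors 1 to 6, and 0 of 30 did in tumors 7 to 9, against 0 of 30 in the controls. Of the values of all tested protein-coding genes other than the receptor genes, 36.7% lay above the line in tumors 1 to 6 and 1.99% in tumors 7 to 9, against 2.06% in the controls, so the members passed it about as often as protein-coding genes in general. The 21 values came from 7 members. Notch1 was above the line in all 6 of these tumors, Notch2, Hes1 and Trib2 in 3 each, and Notch3, Dtx1 and Igf1r in 2 each. Of the 21 values, tumor 6 held 6, tumor 2 held 5, tumors 1 and 4 held 3 each, and tumors 3 and 5 held 2 each. The members and the receptor genes differ in build as well as in use. The longest transcripts of the members had a median GC content of 54.1% and a median length of 4368 bases, against 39.2% and 2583 bases for the receptor genes, and the part of this in the ranks was not tested. The 40 genes of other tissues, with a median of 47.9% GC and 4459 bases, gave 27 of 60 values in tumors 1 to 6 and 0 of 60 in tumors 7 to 9 and the controls. The share of all protein-coding genes past that second line was not counted, so these counts are no result about the members.

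**Figure D3:**
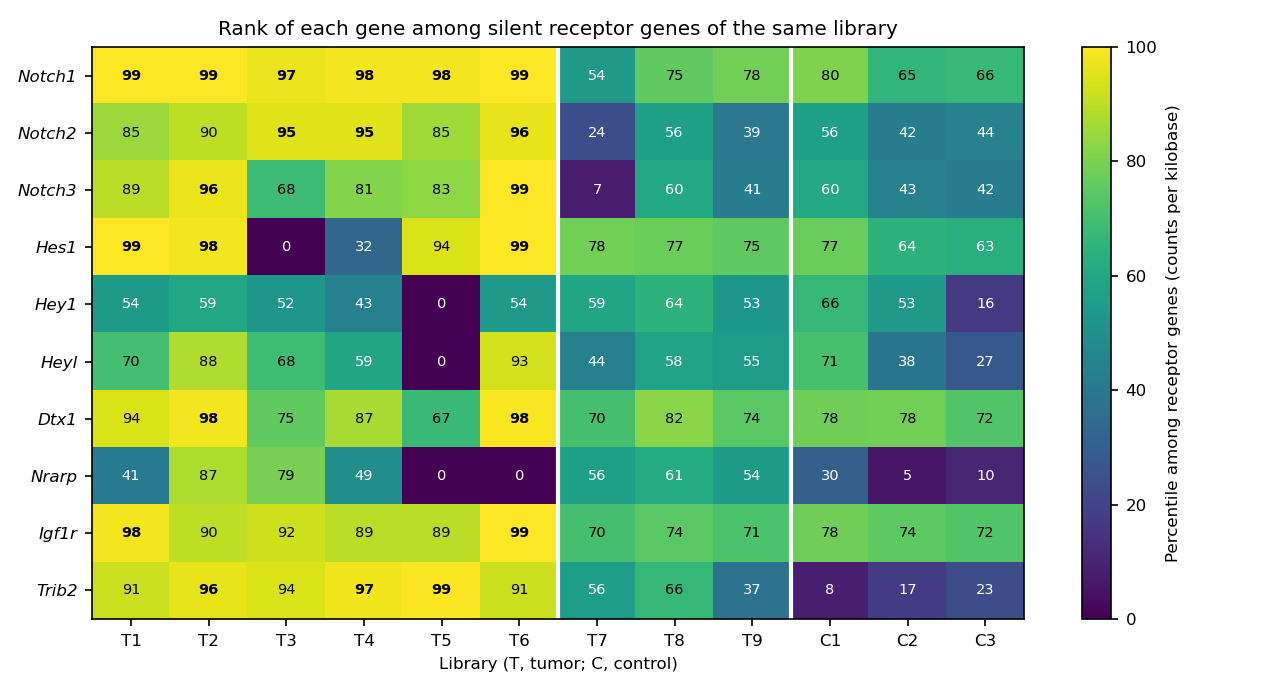
Percentile of each member (rows) by counts per kilobase among 1449 olfactory and vomeronasal receptor genes of the same library (columns), rounded down, with values above 95 in bold. Values above 95 stand in tumors 1 to 6 only, 21 of 60, and Hey1, Heyl and Nrarp have none.

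The labelled comparison, all 9 tumors against 3 controls by edgeR's quasi-likelihood test with Benjamini-Hochberg adjustment over 40484 genes, called none of the 10 members at an adjusted p below 0.05. Of all tested genes 0% were called higher and 0.00494% lower in tumors. The lower calls were 2 genes outside the list, named only after their values were seen, Gm3147 and A430089I19Rik. At an unadjusted p below 0.05 there were 7297 genes and 2 members, Trib2 and Notch1, and DESeq2 called both of these higher (2 of 10 members, against 10.1% of all genes called higher and 0.131% lower). The median log2 fold change was 1.45 over the members and -0.45 over all genes tested.

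In that edgeR fit the log2 fold change of Notch1 was 3.95 (SE 1.51, adjusted p = 0.153), and 6 of 9 tumors were above the highest control in CPM. That of Trib2 was 2.91 (SE 0.936, adjusted p = 0.128), higher in 9 of 9 tumors in CPM. Hes1 (2.64, SE 1.39), Notch3 (1.91, SE 1.13), Igf1r (1.69, SE 0.984), Notch2 (1.20, SE 0.682), Dtx1 (1.03, SE 0.907), Nrarp (0.39, SE 1.09), Heyl (-0.05, SE 0.849) and Hey1 (-0.79, SE 0.942) had adjusted p from 0.361 to 0.972. The direction depended on the scaling. With RLE factors 8 of 10 members had a positive fold change, as with TMM, with library totals 3 did (Notch1, Hes1 and Trib2), and on log2(TPM + 1) only Trib2 did, while the median of all genes moved to -0.72, -1.83 and -1.14. The receptor-gene background of each library was also used as a covariate, at -3.24 to -1.87 in log2 in tumors 1 to 6 and 0.321 to 1.82 elsewhere. It thus takes up most of the contrast of tumors 1 to 6 with the controls, and this fit cannot tell background from label there. With it, the log2 fold change of Notch1 was -0.09 (SE 1.15) and that of Trib2 0.29 (SE 0.655). Hes1 was then at 0.66, while Notch2 (-0.38), Notch3 (-0.44) and Igf1r (-0.19) were below 0, all with an adjusted p of 1.00.

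Without tumors 7 to 9, edgeR called 3 of 10 members higher, beside 19.6% of all genes higher and 20.3% lower, so the count is 1 gene more than such a share of 10 would give. Notch1 had a log2 fold change of 4.29 (adjusted p = 0.00718), Trib2 of 3.12 (adjusted p = 0.00316) and Notch2 of 1.24 (adjusted p = 0.0384). With library totals in place of TMM factors, an alternative chosen after seeing the data, the same libraries gave 1 member higher, Notch1 (2.29, adjusted p = 0.0430), and 4 lower, Notch2 among them (-1.14, adjusted p = 0.0330), beside 4.29% of all genes higher and 74.8% lower. The median of all genes was -1.29 with TMM and -3.70 with library totals, so only the call of Notch1 as higher was shared by both scalings. These tumors differed from the controls in receptor-gene background as completely as in label, so genotype and background cannot be told apart here.

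Tumors 7 to 9 alone against the controls gave 0 of 10 members called by edgeR, beside 0.0247% of genes called in each direction. Notch1 had a log2 fold change of 0.00 with a standard error of 0.314. The largest member values were Nrarp at 0.79 (SE 0.240, adjusted p = 0.387) and Trib2 at 0.70 (SE 0.235, adjusted p = 0.429). Among the receptor genes Nrarp lay between percentiles 54.4 and 61.6 in these 3 tumors, against 5.66 to 30.6 in the controls. Trib2 lay between percentiles 37.3 and 66.5 in the tumors, against 8.42 to 23.5 in the controls. All these ranks of both genes lay within the range of the silent genes. How many other genes ranked higher in all of these tumors than in the controls was not counted.

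**Figure D4:**
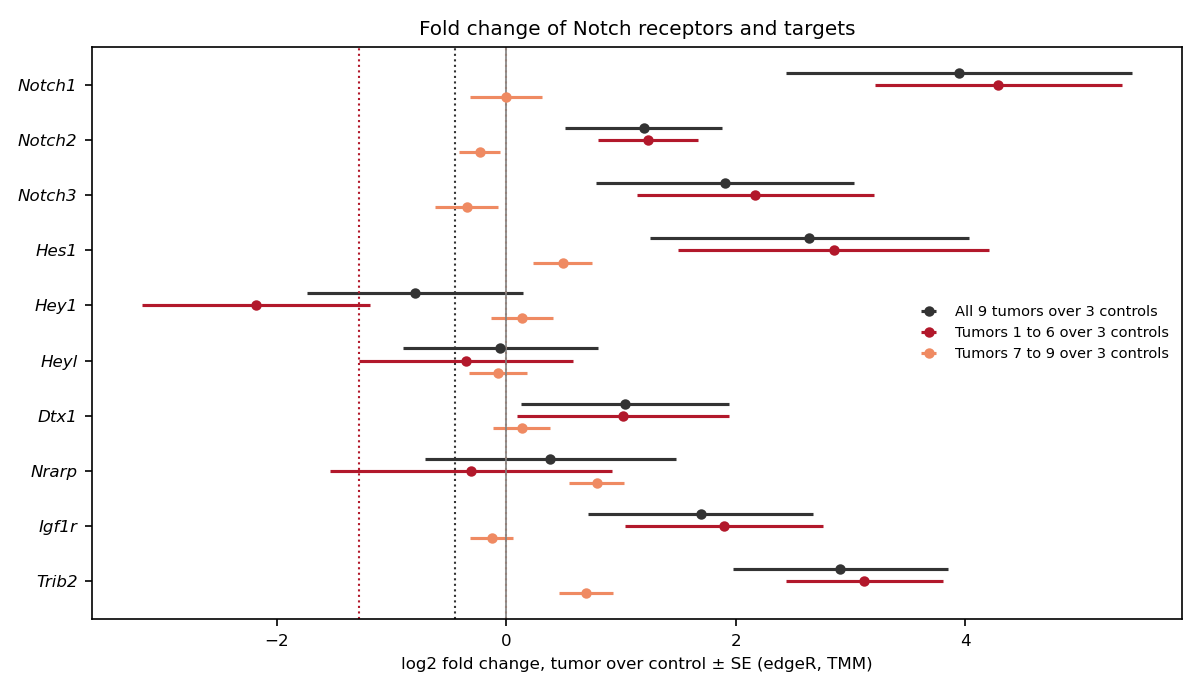
log2 fold change of each member, tumor over control, with its standard error (edgeR, TMM factors), for all 9 tumors, tumors 1 to 6 and tumors 7 to 9 over the same 3 controls, with dotted lines at each fit's median over all genes (-0.45, -1.29 and -0.01). Notch1 lies at 3.95, 4.29 and 0.00, and Hey1 is the member furthest below 0, at -2.18 for tumors 1 to 6.

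A list of 70 other genes of the Notch pathway gave the surroundings of the members. With all 9 tumors edgeR called none of the 70. Without tumors 7 to 9 it called 36 higher and 5 lower with TMM factors, beside 19.6% and 20.3% of all genes. With library totals it called 9 higher and 33 lower, beside 4.29% and 74.8% of all genes, so the list's balance followed the scaling. Ranks among the receptor genes within each library do not depend on it, and are given for tumors 1 to 6. The CPM values beside them do depend on it.

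The listed ligands did not pass the line drawn from the silent genes, which does not show that they were absent. None of the 6 listed ligands (Dll1, Dll3, Dll4, Jag1, Jag2 and Dlk1) lay above the 95th percentile in any of tumors 1 to 6, where Jag2 was at 5.98, 5.60, 9.50, 3.14, 1.71 and 0.764 CPM. Dll3 was at 0.358 to 2.74 CPM there. Notch4, a receptor known from endothelium, was at 0.836 to 4.82 CPM in tumors 1 to 6 and also never passed.

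The machinery that cuts the receptor was present. Adam10, the metalloprotease of the ligand-dependent cut, was at 75.8, 75.0, 73.7, 100, 126 and 78.0 CPM in tumors 1 to 6 and at 6.99, 4.10 and 3.44 CPM in tumors 7 to 9, against 4.70, 3.73 and 3.67 CPM in the controls. Adam10 varied less across tumors 1 to 6 in TMM-scaled CPM than the 3 receptors did. How even it was depends on the TMM factors, which were 0.282 to 0.852 in these tumors. Adam17 was at 26.2 to 61.9 CPM in tumors 1 to 6, and both proteases lay above the 95th percentile in all 6. Of the gamma-secretase parts, Ncstn and Psenen passed in 6 of 6 of these tumors. Without tumors 7 to 9, edgeR called Adam10 and Adam17 higher with TMM factors.

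Rbpj, the DNA-binding partner of the cut receptor, was at 73.7, 61.2, 67.3, 96.6, 85.5 and 75.5 CPM in tumors 1 to 6 and at 16.8, 13.5 and 13.2 CPM in tumors 7 to 9, against 14.4, 14.0 and 13.4 CPM in the controls. In TMM-scaled CPM it varied little between tumors 1 to 6, which again depends on the TMM factors. Tumors 3 and 4, with 0 and 1 counts of Hes1, were not below the lowest of tumors 1, 2 and 6. The co-activator Ep300 was at 70.5 to 210 CPM and the co-repressors Ncor1 and Spen at 298 to 767 and 66.6 to 271 CPM in tumors 1 to 6, all above the 95th percentile in 6 of 6. Fbxw7, the ubiquitin ligase subunit that marks intracellular Notch1 and Myc for breakdown, was at 23.8, 28.8, 61.0, 36.8, 43.7 and 36.6 CPM in tumors 1 to 6, with the lowest values in tumors 1 and 2. The ubiquitin ligases Mib1 (128 to 248 CPM), which acts on ligands, and Cbl (165 to 334 CPM) also passed in all 6. Of the glycosyltransferases that modify Notch, Poglut1 passed in 6 and Pofut1 in 4 of 6.

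Other genes described as Notch targets in T cells had differing orders across tumors 1 to 6. Myc was at 67.2, 84.3, 161, 99.1, 48.2 and 85.9 CPM in tumors 1 to 6, highest in tumor 3, where Hes1 had no count. Il7r, the gene of the inducible construct, was at 72.7, 308, 512, 78.0, 97.5 and 33.3 CPM in tumors 1 to 6, lowest in tumor 6, where Notch1 was highest. Counts summed by symbol do not tell RNA of the construct from that of the endogenous gene, so this order does not describe Il7r as a Notch target alone. Tcf7 (299 to 750 CPM) and Cdk6 (143 to 500 CPM) were past the 95th percentile in all 6 tumors. Ptcra, the pre-T cell receptor alpha chain, was at 2.03, 9.64, 1.85, 2.46, 1.83 and 7.39 CPM, highest in tumors 2 and 6, the only 2 tumors in which it passed.

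Of 9529 protein-coding genes with at least 5 CPM on average over tumors 1 to 6, those whose log2(CPM + 1) was most like that of Notch1 over these 6 libraries included Hfm1 (Pearson r 0.99), Abcb6 (0.99), Tpd52 (0.99) and Cxx1a (0.98). Notch3 ranked 7th with r = 0.98, Dtx1 62nd with 0.92, Hes1 159th with 0.86 and Igf1r 202nd with 0.84, and Notch2 (0.23) and Trib2 (-0.63) were far down the order. The genes most like Dtx1 were Nsg2 (0.99), Pakap (0.98), Rpl35 (0.98), Gja1 (0.98) and Adam19 (0.98). These r values are descriptions over 6 libraries that share scaling factors, and with so many genes high values occur in number.

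Promoter entries in the RefSeq table for GRCm38 were found for 7 of the 10 members (not for Hes1, Hey1 and Heyl), and none of the 7 held TGGGAA, the core of the RBPJ motif, on either strand in the 250 bases before the start. It stood in 21.6% of all promoters listed there (7094 of 32851). The missing match says only that these letters are not in those windows.

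Markers of other cell types were given their own sums. The 8 B cell markers summed to 6.25 to 31 CPM in tumors 1 to 6 and to between 37.9 and 45.6 CPM in tumors 7 to 9, against 42.2 to 46.4 CPM in the controls, and none lay above the 95th percentile in any library. The 10 myeloid markers summed to 28.0 to 232 CPM in tumors 1 to 6, with 2 to 6 past the line, and to between 22.2 and 27.4 CPM in tumors 7 to 9, against 20.4 to 26.3 CPM in the controls, with none past it in either. The 8 endothelial markers summed to 186 to 1152 CPM in tumors 1 to 6 and to between 91.9 and 156 CPM in tumors 7 to 9, against 38.9 to 86.2 CPM in the controls, with at most 2, 1 and 1 past the line. Pecam1 held most of the sum in tumors 1 to 6, at 175 to 1150 CPM, where each of the other 7 reached at most 6.94 CPM. It was at between 60.7 and 129 CPM in tumors 7 to 9, against 11.7 to 58.5 CPM in the controls. The 6 fibroblast markers summed to 16.8 to 201.1 CPM in tumors 1 to 6 and to between 47.2 and 54.3 CPM in tumors 7 to 9, against 35.4 to 40.8 CPM in the controls. The 8 thymic epithelial markers summed to 5.62 to 30.1 CPM in tumors 1 to 6 and to between 32.9 and 35.5 CPM in tumors 7 to 9, against 26.7 to 35.1 CPM in the controls. Their part in the Notch values was not tested.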

How the data were processed

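Per the file headers, the authors gave estimated counts, lengths and effective lengths for each transcript in each of the 12 libraries. TPM values stand beside them in the deposited files. kallisto, FastQC and mm10 are named in the submitters' processing notes. Neither versions nor the annotation used for the index are given in those notes.

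Estimated counts of 128622 transcripts were summed by symbol and rounded. Of 42 member transcripts, 40 matched GENCODE M21 by identifier and length, which gave coordinates and sequences. edgeR 4.0.16 (TMM, filterByExpr by group, quasi-likelihood F test) ran on 40484 genes, with DESeq2 1.42.0 and limma 3.58.1 as alternatives, and was tested on simulated data. Density was estimated counts per kilobase of effective length of a gene's longest transcript. Shares have 95% Wilson intervals. Floors are 3 counts. Intervals and floors cover counting error only. kallisto divides shared reads, so values of overlapping transcripts are uncertain.

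The members and the gene lists were chosen with earlier results of these data known. Named genes were the 10 members, the 2 most abundant non-members of each pathway sub-list, 6 further genes, and the 5 genes most like Notch1 and Dtx1. Some results are not reported here. Alternatives were other scalings, filters, units, backgrounds and left-out libraries.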

Additional observations from a re-analysis of the deposited data

How the results depend on the processing

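With all 12 libraries 0 genes were called higher and 2 lower by edgeR, and 0 of the 10 members and 0 of the 70 pathway genes in either direction. RLE factors, library totals and no filter gave the same counts, and the receptor background as a covariate left 0 lower, with Notch1 at -0.09. That covariate also sets tumors 1 to 6 apart from all other libraries, so the fit cannot tell background from label there. Leaving out 1 library gave 0 higher and 0 to 3 lower genes and 0 members. DESeq2 called 4079 genes higher and 53 lower, 2 members and 23 pathway genes higher. Without tumors 7 to 9 the counts were 7564 and 7822 genes, 3 members higher, and 36 pathway genes higher and 5 lower. With library totals in the same libraries (chosen after seeing the data) they were 1653 and 28807 genes, 1 member higher and 4 lower, and 9 and 33 pathway genes, with Notch2 at -1.14 and Nrarp at -2.86. Tumors 7 to 9 alone gave 9 genes in each direction. limma on log2(TPM + 1) called 125 genes higher and 32091 lower, with 6 members and 36 pathway genes lower. On log2(TPM + 0.1) these were 114, 30997, 6 and 35. Under these 2 pseudocounts Notch2 (-0.97 and -1.74), Dtx1 (-1.49 and -2.21), Nrarp (-0.63 and -1.94) and Igf1r (-1.83 and -2.53) were reversed. The median of all genes was -1.14 and -2.62 there, and the cause was not tested. The same highest tumor was kept by 6 of 10 members in TPM and by 6 of 10 in CPM of library totals, against 10 when scaled to nuclear protein-coding counts.

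The labels number tumors and controls 1 to 3 alike, without saying that a number marks a shared source. Deviations of same-numbered libraries correlated at -0.03, 0.05 and 0.01, so the numbers were not taken as pairs. With the replicate block, tumors 1 to 3 against controls 1 to 3 gave 8085 genes higher and 1824 lower, 5 members and 39 pathway genes higher. Without the block (chosen after seeing the data) the same libraries gave 8709, 3566, 6 and 40, and 1 pathway gene lower.

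The Notch1 difference over receptor genes was 2.90 to 4.6 when 1 library was left out (exact permutation p from 0.050 to 0.311). It was 6.28 without tumors 7 to 9 (exact permutation p = 0.0357), but these tumors were set apart partly by the divisor of this ratio. Over the mean of the lower 95% of receptor genes, and for the full-length form alone over that mean, both chosen after seeing the data and holding all 12 libraries, it was 3.59 and 3.89 (exact permutation p = 0.10 and 0.118). Truncated Notch1 forms moved to 68.5%, 65.9%, 78.7%, 20.0%, 87.4% and 64.7% in TPM in tumors 1 to 6. Depth limits the low members: 3 counts stood for 0.119 to 0.409 CPM in tumors 1 to 6.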
